A study of Mus musculus with 12 samples.

Results

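The genes of the inflammasome, the inflammatory caspases and gasdermin D were followed in RNA of the liver immune cell fraction from WT and Casp11-/- mice fed HFD or NCD. The set was a fixed list of 10 genes, taken by symbol but chosen with earlier results of these data known. It held the sensors Nlrp3 and Aim2, the adaptor Pycard, the caspases Casp1, Casp4 and Casp8 and the pore protein gene Gsdmd. The cytokines Il1b and Il18 and the IL-18 antagonist Il18bp completed it. All 10 were among the 40840 genes listed in each library, and all 10 passed the filter on low values that left 19498 genes for testing.

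Both genotypes were fed each diet, which made 4 groups of 3 male mice with 1 library per mouse: WT-NCD and WT-HFD, and the matching groups Casp11-/- NCD and Casp11-/- HFD. There were 12 libraries in all. WT mice were labelled C57BL/6, and the knockout mice carried a germline deletion of caspase-11 (labelled B6.129S4(D2)-Casp4tm1Yuan/J), so the enzyme is missing from every cell type and not only from macrophages. Feeding lasted 12 weeks and began when the mice were 8 to 10 weeks old, and the NCD mice had normal chow throughout. The cells were taken from digested livers by Percoll separation, without a sort for a surface marker.

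Inflammasomes are protein complexes that form when a cytosolic sensor meets a danger or microbial signal. NLRP3 and AIM2 recruit caspase-1 through the adaptor ASC, the product of Pycard, and caspase-1 cleaves pro-IL-1β, pro-IL-18 and gasdermin D. Caspase-11, the product of Casp4 in the mouse, binds cytosolic lipopolysaccharide without these sensors and cleaves gasdermin D itself, which forms membrane pores and leads to pyroptosis. Caspase-8 is the initiator caspase of death receptor signalling and can cleave several of the same substrates. In the liver, Kupffer cells and recruited monocytes are known sites of this pathway, and IL-18 binding protein, a secreted decoy, keeps IL-18 from its receptor. Much of the control of caspases and gasdermin D is by cleavage of the protein, which RNA levels do not show.

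The values are TPM, the reads of a gene divided by its length and scaled to a common total per library, so levels of different genes can be compared. The paper states a nominal number of reads per sample, but the files gave no read counts. The reads behind each TPM are therefore unknown. The lowest value in every library was 1.01 TPM, a floor, and none of the 10 genes was at it in any library. Groups were compared with limma on log2(TPM + 1), and a gene was called at an adjusted p under 0.05, the adjustment running over all genes tested. Fold changes on this scale understate those of genes at a few TPM.

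3 features of the libraries touch the results. WT-NCD replicate 3 stood apart: its highest TPM was 1635 (at least 153305 in the others), 39677 genes were above the floor (12940 to 18775), and over the genes tested its log2(TPM + 1) correlated negatively with every other library (Pearson r -0.45 to -0.14, taken over genes rather than mice). The share of TPM on protein-coding genes was 15.7% to 25.2% in the 6 HFD libraries, and in the NCD libraries it was 33.9%, 37.8% and 14.5% for WT and 36.7%, 22.3% and 42.4% for Casp11-/-. A change of that share moves every TPM in a library, so results are also given with the protein-coding genes of each library rescaled to 1 total, and with WT-NCD replicate 3 left out. The fraction labelled as macrophages also held RNA of other cells: in the other 11 libraries, 6 hepatocyte markers summed to 6136 to 22912 TPM, 8 Kupffer cell markers to 48.9 to 659 TPM and 5 B cell markers to 125 to 1548 TPM. In such bulk RNA, fewer cells of a type and less RNA per cell cannot be told apart.

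The diet and ratio results below turn on 3 genes, whose upstream sequences are shown for reference: Il18bp and Pycard, which differed between the diets in opposite directions, and Casp4, the targeted gene. Each is the 250 bases before a RefSeq start (GRCm38.p6), 5′ to 3′ on the strand of the gene, with matches to any of 6 motifs in capitals. Il18bp is on the minus strand of chromosome 7 (chr7:102018233-102018482), Pycard on the minus strand of the same chromosome (chr7:127993868-127994117) and Casp4 on the plus strand of chromosome 9 (chr9:5308599-5308848).
Il18bp: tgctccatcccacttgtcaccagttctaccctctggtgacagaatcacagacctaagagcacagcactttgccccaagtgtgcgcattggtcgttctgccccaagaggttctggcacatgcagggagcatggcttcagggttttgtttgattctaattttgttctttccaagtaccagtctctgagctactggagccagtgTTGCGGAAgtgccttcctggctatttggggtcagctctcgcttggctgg
Pycard: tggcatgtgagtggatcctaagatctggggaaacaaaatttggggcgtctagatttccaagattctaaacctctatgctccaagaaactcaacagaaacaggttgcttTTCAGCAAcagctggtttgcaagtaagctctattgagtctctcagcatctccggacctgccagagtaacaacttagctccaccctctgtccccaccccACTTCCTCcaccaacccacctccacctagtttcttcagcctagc
Casp4: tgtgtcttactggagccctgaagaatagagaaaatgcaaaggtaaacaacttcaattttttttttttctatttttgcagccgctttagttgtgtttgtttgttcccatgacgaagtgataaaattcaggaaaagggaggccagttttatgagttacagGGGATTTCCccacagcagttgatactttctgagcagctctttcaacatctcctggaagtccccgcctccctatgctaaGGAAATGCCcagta
The motifs were searched on both strands as TTCNNNGAA (gamma-activated site, in 7.02% of 32851 RefSeq upstream windows of this length), GAAANNGAA (interferon response, 7.13%), GGNNTTTCC (kappaB, 4.93%), TGANTCA (AP-1, 6.75%), TTGCNNAA (C/EBP, 9.56%) and GAGGAAGT (PU.1, 2.44%). The capitals mark a C/EBP match in Il18bp, a C/EBP and a PU.1 match in Pycard, and 2 kappaB matches in Casp4. Of the other members, Aim2 held a PU.1 match and each of 2 Nlrp3 windows a kappaB match, while none of the 6 motifs was in the windows of Casp1, Casp8, Il1b and Il18. A match is only a run of letters, and no binding was measured. By the gene spans of GENCODE vM21, the Il18bp window lies inside the gene. The end of the Casp4 window, with the second kappaB match, does so too. Gsdmd had no entry.

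By mean TPM over the 11 libraries other than WT-NCD replicate 3, Il1b was the most abundant of the 10 at 55.96 TPM, above 94.8% of the protein-coding genes tested. Pycard (21.9 TPM), Casp8 (17.4), Casp1 (14.7), Gsdmd (11.9), Il18bp (10.3), Aim2 (9.88), Casp4 (8.25) and Nlrp3 (7.85) followed, and Il18 was lowest at 4.43 TPM, above 37.2% of those genes. Neighbours in this order were not distinct, since the range of each gene over the 11 libraries overlapped that of the next. The spread was wide: the coefficient of variation over these libraries ran from 46.0% for Casp8 to 96.7% for Pycard.

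**Figure D1:**
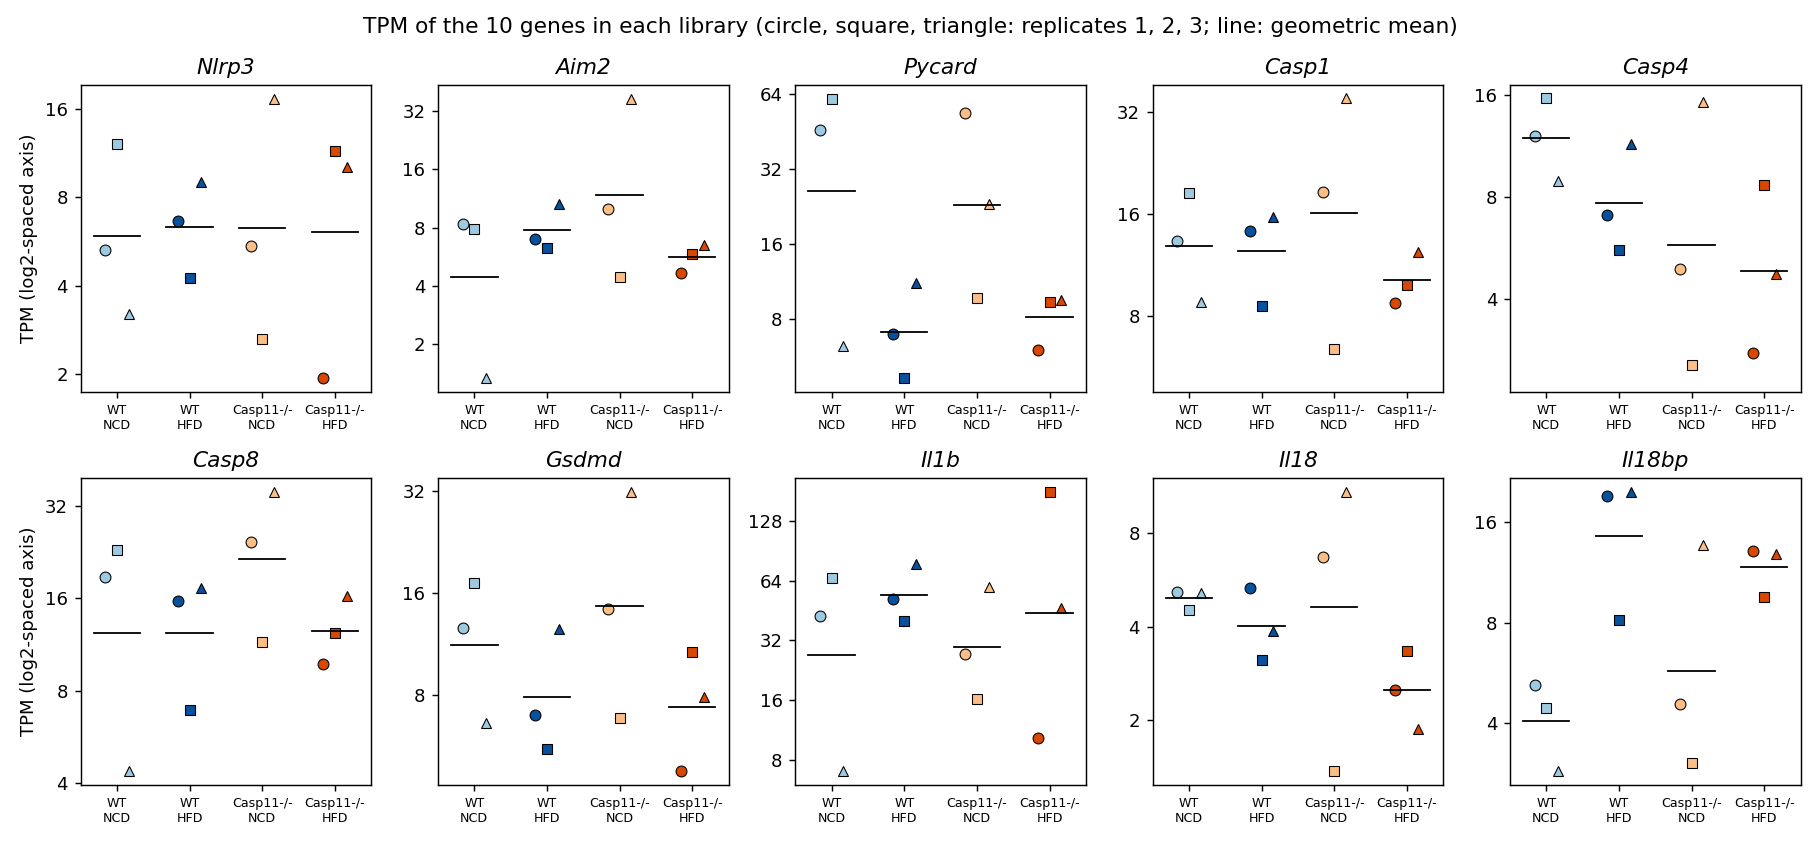
TPM of each of the 10 genes (log2-spaced vertical axes, 1 panel per gene) in the 3 libraries of each group, with circles, squares and triangles for replicates 1, 2 and 3 and a line at the geometric mean. Il18bp is at 8.17 to 19.6 TPM in WT-HFD, above all WT-NCD libraries, Pycard is at 4.63 to 11.1 TPM in all 6 HFD libraries, and the groups overlap for most other genes.

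None of the 10 genes was called in any of the 7 comparisons when all 12 libraries were used (0 of 10 each time). For HFD against NCD, the share of all 19498 genes called was 0.113% in WT mice, 0% in Casp11-/- mice and 0.554% averaged over the genotypes. For Casp11-/- against WT it was 0% on NCD, 0% on HFD and 0% averaged over the diets, and for the interaction of diet and genotype 0%. At an unadjusted p under 0.05, the diet comparison reached 1 member in WT mice (Il18bp, background 6.96%), 0 in Casp11-/- mice (8.48%) and 2 on average (Il18bp and Pycard, 16.8%). No member did so for genotype on NCD (1.5%), on HFD (0.154%) or averaged over diets (0.585%), or for the interaction (0.79%). A median over all genes tested of -0.61 for the averaged diet log2 fold change, which was -0.10 after rescaling, is the level against which the members are to be read. The median of the 10 members was -0.36 in TPM and 0.06 rescaled.

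Mean Il18bp RNA was higher on HFD in both genotypes, a difference that was called only after rescaling or without WT-NCD replicate 3. Il18bp, which encodes the soluble antagonist of IL-18, was at 5.21, 4.46 and 2.89 TPM in WT-NCD and at 19.1, 8.17 and 19.6 TPM in WT-HFD. It was at 4.57, 3.05 and 13.6 TPM in Casp11-/- NCD and at 13.1, 9.52 and 12.9 TPM in Casp11-/- HFD. The WT groups did not overlap, and in Casp11-/- mice NCD replicate 3 reached the HFD range. Averaged over genotypes, the log2 fold change was 1.25 (SE 0.38, 2.38-fold, unadjusted p = 0.00699, adjusted p = 0.193), with 1.62 (SE 0.53, adjusted p = 0.501) in WT and 0.88 (SE 0.53, adjusted p = 0.545) in Casp11-/- mice. The interaction, -0.74 (SE 0.75, adjusted p = 0.78), did not pass the test.

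After rescaling of the protein-coding genes, Il18bp was at 4.07, 3.12 and 5.37 in WT-NCD and at 20.7, 13.8 and 20.7 in WT-HFD. On the same rescaled scale it was at 3.30, 3.62 and 8.56 in Casp11-/- NCD and at 18.1, 10.8 and 14.9 in Casp11-/- HFD, so all 6 HFD libraries stood above all 6 NCD libraries. The averaged log2 fold change was then 1.66 (SE 0.25, adjusted p = 0.00712), and 1.75 (SE 0.25, adjusted p = 0.00292) with WT-NCD replicate 3 also left out. With that replicate left out of the TPM alone it was 1.15 (SE 0.38, adjusted p = 0.0417). With Casp11-/- HFD replicate 2 left out as well, it was 1.22 (adjusted p = 0.0609) in TPM and 1.84 (adjusted p = 0.0029) rescaled. Rescaled and without WT-NCD replicate 3, Il18bp rose in WT-HFD vs WT-NCD (2.07, SE 0.38, adjusted p = 0.0339) and in Casp11-/- HFD vs Casp11-/- NCD (1.42, SE 0.34, adjusted p = 0.04). An exact permutation test over libraries, exchanging diet labels within each genotype, gave p = 0.02 in TPM (two-sided, 400 arrangements) and 0.005 rescaled, the smallest possible. Il18bp stood in a gene list that the study itself drew up on these libraries, so this is not independent evidence.

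Mean Pycard RNA was lower on HFD in both genotypes, a difference called only without WT-NCD replicate 3. Pycard, whose product ASC joins sensors to caspase-1, was at 45.9, 61.1 and 6.23 TPM in WT-NCD and at 6.92, 4.63 and 11.1 TPM in WT-HFD. It was at 53.6, 9.69 and 23.0 TPM in Casp11-/- NCD and at 5.99, 9.29 and 9.47 TPM in Casp11-/- HFD. All 6 HFD libraries were low, 3 of the 6 NCD libraries were above 45 TPM, and while the Casp11-/- groups did not overlap, WT-NCD replicate 3 lay within the WT-HFD range. The averaged log2 fold change was -1.58 (SE 0.57, unadjusted p = 0.0186, adjusted p = 0.221).

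Without WT-NCD replicate 3, the fall of Pycard was called, with an averaged log2 fold change of -2.07 (SE 0.40, adjusted p = 0.00147). In WT mice alone it was -2.73 (SE 0.59, adjusted p = 0.00839), and in Casp11-/- mice -1.41 (SE 0.53, adjusted p = 0.136). Rescaling gave -1.17 (SE 0.36, adjusted p = 0.0882) with all libraries and -1.45 (SE 0.28, adjusted p = 0.00849) without that replicate. The exact permutation test (two-sided, within genotype) gave p = 0.04 in TPM, 0.01 rescaled and 0.005 without WT-NCD replicate 3.

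Each count is given beside the share of all genes called. Without WT-NCD replicate 3, 1 of 10 members was called in WT mice (Pycard, background 2.18%), 0 in Casp11-/- mice (1.1%) and 2 on average (Il18bp and Pycard, 18.3%). Rescaled and without it, 2 were called in WT mice (Il18bp and Pycard, 0.809%), 1 in Casp11-/- mice (Il18bp, 3.55%) and 2 on average (13.7%). For the average, a share of 2 in 10 lies near the background. Of the 10 members, 1 had diet groups that did not overlap in WT mice (Il18bp, background 15.7%) and 1 in Casp11-/- mice (Pycard, 17.2%).

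RNA of whole cell types moved with the diet beside these genes. In the 11 libraries, Kupffer cell markers summed to 73.7 to 115 TPM in WT-NCD and 242 to 659 TPM in WT-HFD, and to 48.9 to 341 TPM and 247 to 368 TPM in the Casp11-/- groups. B cell markers summed to 1172 to 1293 TPM in WT-NCD and 125 to 277 TPM in WT-HFD, and to 395 to 1548 TPM and 158 to 261 TPM in the Casp11-/- groups. The summed Kupffer markers were higher on HFD with no overlap in WT mice, while the Casp11-/- groups overlapped. In Casp11-/- NCD replicate 3, the library at 341 TPM, Csf1r alone was at 242 TPM and Adgre1 at 48.1 TPM. In Casp11-/- mice, Clec4f was at 4.01 to 12.1 TPM on NCD and 32.9 to 59.5 TPM on HFD. Vsig4, Cd5l, C1qa and Timd4 were likewise higher on HFD with no overlap there, while Csf1r, Adgre1 and Marco overlapped. The summed B cell markers were lower on HFD with no overlap in both genotypes. The same held for NK cell markers (132 to 177 TPM in WT-NCD and 31.8 to 58.1 TPM in WT-HFD, 98.1 to 106 TPM and 32.7 to 44.3 TPM in the Casp11-/- groups), for T cell markers (227 to 278 TPM and 55.3 to 161 TPM, 100.3 to 431 TPM and 54.2 to 68.9 TPM) and for erythroid markers (683 to 4875 TPM and 227 to 609 TPM, 1936 to 14315 TPM and 327 to 510.2 TPM). Neutrophil markers were lower on HFD with no overlap in WT mice (953 to 988 TPM and 279 to 478 TPM), and sinusoidal endothelial markers were higher with no overlap in Casp11-/- mice (81.1 to 342 TPM and 429 to 1115 TPM). Summed dendritic cell markers were higher on HFD with no overlap in WT mice (44.9 to 57.0 TPM and 61.1 to 142 TPM). Of these, Siglech, Ccr9 and Clec9a did not overlap, while Xcr1, Zbtb46 and Flt3 did. Flt3 was at 8.54 and 13.9 TPM in WT-NCD and at 5.40, 4.09 and 12.2 TPM in WT-HFD. Cholangiocyte markers were lower with no overlap in Casp11-/- mice (11.2 to 88.5 TPM and 4.07 to 4.76 TPM). In those HFD libraries only 1 or 2 of the 4 cholangiocyte markers were above the floor, so these sums are near the floor. All 5 B cell markers were above the floor in every library, and of the Kupffer markers Marco was at the floor in 6 libraries and Timd4 in 1. These sums are in TPM and were not rescaled, so they also move with the protein-coding share of each library. A separation of the diets in TPM, as for the erythroid and T cell markers, need not hold after rescaling. The part of these cells in either result was not tested.

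**Figure D2:**
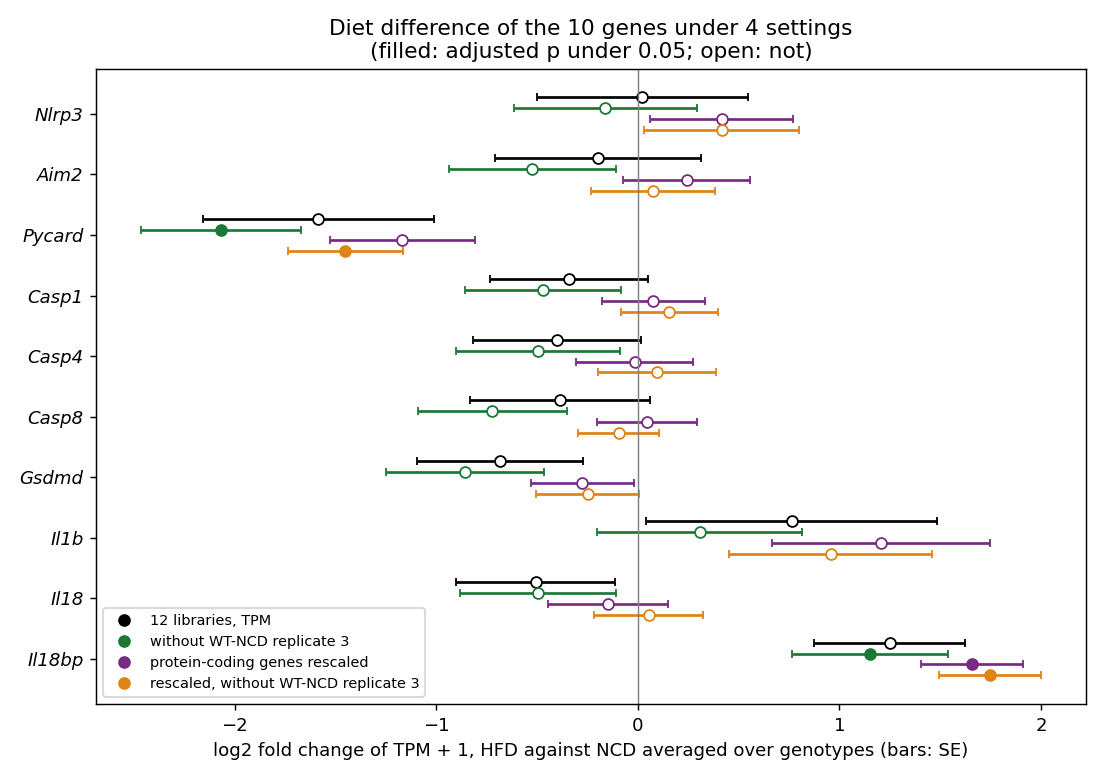
Log2 fold change of TPM + 1 for HFD against NCD, averaged over genotypes (horizontal axis), for each of the 10 genes, with bars for the standard error and 4 colours for the settings named in the key. Filled points passed an adjusted p under 0.05: they are Il18bp in 3 settings and Pycard in 2, and no other gene has one.

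The sensors did not differ between the diets by the test. Nlrp3 was at 5.30, 12.1 and 3.21 TPM in WT-NCD, 6.62, 4.26 and 8.99 in WT-HFD, 5.47, 2.64 and 17.3 in Casp11-/- NCD and 1.95, 11.5 and 10.2 in Casp11-/- HFD. All 4 groups overlapped, and the averaged diet log2 fold change was 0.02 (SE 0.52, adjusted p = 0.977). Aim2, the sensor of cytosolic DNA, was at 8.34, 7.92 and 1.34 TPM in WT-NCD and 6.97, 6.30 and 10.6 in WT-HFD. It was at 10.03, 4.44 and 37.03 TPM in Casp11-/- NCD and 4.67, 5.84 and 6.54 in Casp11-/- HFD, a tight group beside the widest one. Its diet log2 fold change was -0.20 (SE 0.51, adjusted p = 0.789) and its interaction, the largest in size among the members, was -1.58 (SE 1.02, adjusted p = 0.78). Its value came to -0.93 when WT-NCD replicate 3 was left out, the library with the lowest Aim2, and to -0.82 when Casp11-/- NCD replicate 3 was, the one with the highest.

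Casp1, Casp8 and Gsdmd varied widely within groups, and none of these 3 genes was called on diet. Casp1 was at 13.3, 18.4 and 8.80 TPM in WT-NCD, 14.3, 8.59 and 15.6 in WT-HFD, 18.6, 6.402 and 35.2 in Casp11-/- NCD and 8.72, 9.85 and 12.4 in Casp11-/- HFD. Casp8 was at 18.8, 23.0 and 4.39 TPM in WT-NCD, 15.7, 6.94 and 17.2 in WT-HFD, 24.4, 11.5 and 35.5 in Casp11-/- NCD and 9.82, 12.3 and 16.2 in Casp11-/- HFD. Gsdmd was at 12.6, 17.1 and 6.61 TPM in WT-NCD, 7.02, 5.57 and 12.6 in WT-HFD, 14.3, 6.86 and 31.7 in Casp11-/- NCD and 4.79, 10.7 and 7.90 in Casp11-/- HFD. For each of these 3 genes the diet groups overlapped in both genotypes, and Casp11-/- NCD replicate 3 was the highest library. That library also had the largest share of TPM on protein-coding genes, 42.4%, and after rescaling its values were 22.1 for Casp1, 22.3 for Casp8 and 19.9 for Gsdmd. The averaged diet log2 fold changes were -0.34 (SE 0.39) for Casp1, -0.38 (SE 0.45) for Casp8 and -0.68 (SE 0.41) for Gsdmd, with adjusted p of 0.581, 0.582 and 0.424. After rescaling, those of Casp1 and Casp8 changed sign (0.08 and 0.05), and that of Gsdmd was -0.27. Without WT-NCD replicate 3 in TPM, they were -0.47 for Casp1, -0.72 for Casp8 and -0.86 for Gsdmd. The exact permutation test within genotype (two-sided, not adjusted) then gave p = 0.245, 0.065 and 0.05.

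Casp4 RNA was present in the libraries labelled Casp11-/-. The gene lies on chromosome 9 of GRCm38 (5308828 to 5336783, plus strand in GENCODE vM21), next to Casp1 (5298517 to 5307265), and no annotated gene overlaps either. Its TPM read 12.1, 15.6 and 8.94 in WT-NCD, 7.09, 5.60 and 11.4 in WT-HFD, 4.93, 2.56 and 15.2 in Casp11-/- NCD and 2.78, 8.68 and 4.73 in Casp11-/- HFD. Of the 6 libraries labelled Casp11-/-, 4 were below every WT library and 2 were within the WT range. TPM are summed over a gene and do not show whether reads came from the deleted exons, so they check no label, and genotype is given as labelled. In its file header, Casp11-/- HFD replicate 2 is named unlike the other libraries of that genotype, which leaves its label less certain.

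Averaged over diets, Casp4 differed between the genotypes by a log2 fold change of -0.72 (SE 0.42, unadjusted p = 0.113, adjusted p = 0.902). Rescaled, the difference was -0.88 (SE 0.29), with an adjusted p of 0.979 over all protein-coding genes tested. The exact permutation test within diets (two-sided, 400 arrangements) gave p = 0.11 in TPM and 0.035 rescaled, the latter 0.065 without WT-NCD replicate 3. The other 9 members had averaged genotype differences from -0.25 (Il18, SE 0.39) to 0.39 (Aim2, SE 0.51), and none passed the test. For diet, the log2 fold change of Casp4 was -0.40 (SE 0.42, adjusted p = 0.567), and rescaled and without WT-NCD replicate 3 it was 0.10.

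A ratio of 2 genes in the same library does not depend on the scaling of that library. The Casp4 to Casp1 ratio was 0.908, 0.85 and 1.02 in WT-NCD, 0.497, 0.651 and 0.731 in WT-HFD, 0.266, 0.400 and 0.433 in Casp11-/- NCD and 0.318, 0.881 and 0.383 in Casp11-/- HFD. In 5 of the 6 libraries labelled Casp11-/- it was below all 6 WT libraries, and the exception was Casp11-/- HFD replicate 2. Averaged over diets the ratio was 0.546-fold in Casp11-/- against WT (log2 difference -0.87, exact permutation p = 0.025, two-sided, adjusted p = 0.075 over 6 ratio tests). Without Casp11-/- HFD replicate 2, a library singled out after its ratio was seen, it was 0.468-fold (exact permutation adjusted p = 0.015). Leaving out each of the other 11 libraries in turn gave exact permutation adjusted p from 0.06 to 0.15. The same ratio was 0.944-fold on HFD against NCD (log2 difference -0.08, exact permutation p = 0.81).

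Of the 6 other protein-coding genes within 1 Mb of Casp4 that were above the floor in 3 libraries or more, Casp1, Casp12, Aasdhppt, Kbtbd3, Msantd4 and Pdgfd, none was called for genotype. Their averaged genotype log2 fold changes lay between -0.22 (Msantd4, SE 0.33) and 0.09 (Aasdhppt, SE 0.32). Casp12, a caspase gene on the far side of Casp4, was above the floor in only 5 libraries.

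The 2 cytokines differed in abundance and in spread. Il1b, the precursor of IL-1β, was at 42.4, 66.0 and 7.05 TPM in WT-NCD, 51.5, 40.0 and 77.6 in WT-HFD, 27.2, 16.2 and 59.1 in Casp11-/- NCD and 10.3, 179 and 46.5 in Casp11-/- HFD. The groups overlapped, and the averaged diet log2 fold change was 0.76 (SE 0.72, adjusted p = 0.564), or 0.31 (SE 0.51) without WT-NCD replicate 3. Il18, which is made by resting macrophages, was at 5.19, 4.54 and 5.13 TPM in WT-NCD, 5.32, 3.13 and 3.87 in WT-HFD, 6.72, 1.37 and 10.9 in Casp11-/- NCD and 2.51, 3.33 and 1.87 in Casp11-/- HFD. Its averaged diet log2 fold change was -0.51 (SE 0.39, adjusted p = 0.548).

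The highest Il1b value belonged to Casp11-/- HFD replicate 2, which also stood apart in neutrophil RNA. The 8 neutrophil markers summed to 4406 TPM there, against 114 to 988 TPM in the other 10 libraries when WT-NCD replicate 3 is set aside, and S100a8 alone was at 2414 TPM. Nlrp3 was at 11.5 TPM in that library, inside the range of the rest, but at 13.1 after rescaling, the highest of all libraries. Without that library and WT-NCD replicate 3, the averaged diet log2 fold change of Il1b in TPM was -0.19, against 0.76 with all libraries. On the rescaled values it was 0.49 without both libraries and 1.21 with all libraries, so the sign without both depended on the scaling. The part of neutrophils in the Il1b values was not tested.

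**Figure D3:**
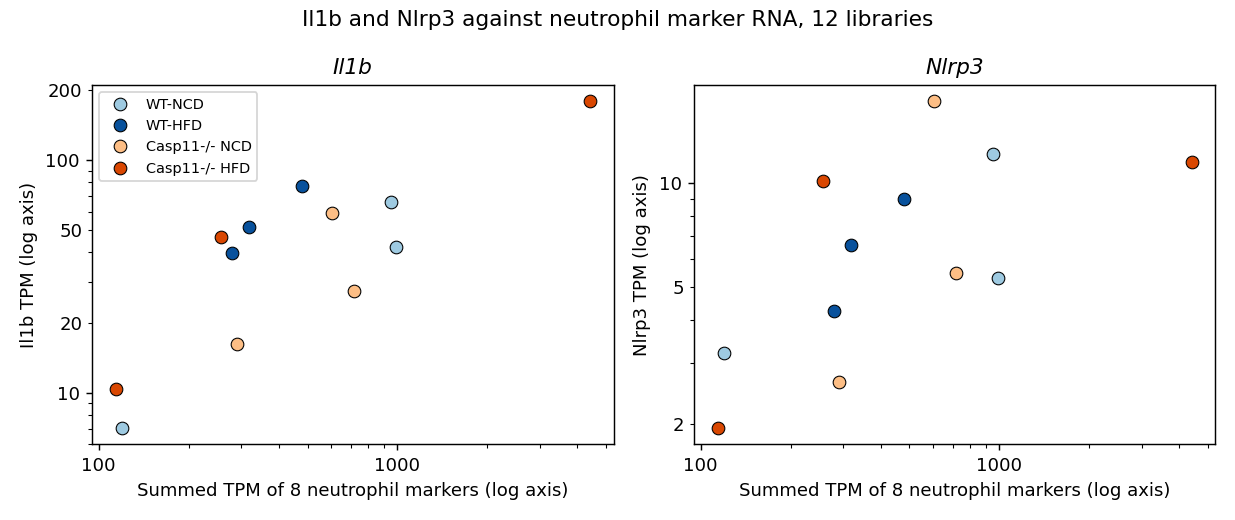
Il1b (left) and Nlrp3 (right) TPM against the summed TPM of 8 neutrophil markers in the 12 libraries, both axes logarithmic, coloured by group. The point at 4406 TPM of markers and 179 TPM of Il1b is Casp11-/- HFD replicate 2, and its Nlrp3 TPM lies within the range of the other libraries. After rescaling, which is not drawn, its Nlrp3 is the highest.

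The antagonist rose against its cytokine on HFD. The Il18bp to Il18 ratio was 1.004, 0.981 and 0.563 in WT-NCD and 3.59, 2.61 and 5.07 in WT-HFD. It was 0.68, 2.22 and 1.26 in Casp11-/- NCD and 5.23, 2.86 and 6.86 in Casp11-/- HFD. All 6 HFD libraries, at 2.61 or more, were above all 6 NCD libraries, at 2.22 or less. Il18 was near the floor of 1.01 TPM in the libraries with the highest ratio on each diet. It was at 1.37 TPM in Casp11-/- NCD replicate 2 (ratio 2.22) and 1.87 TPM in Casp11-/- HFD replicate 3 (ratio 6.86). The ratio was 4.08-fold higher on HFD (log2 difference 2.03, exact permutation p = 0.005, two-sided, the smallest that 400 arrangements allow, adjusted p = 0.03 over 6 ratio tests). Leaving out Casp11-/- NCD replicate 1, Casp11-/- HFD replicate 1 or Casp11-/- HFD replicate 3 brought the adjusted exact permutation p to 0.06, at ratios 3.52-fold, 3.97-fold and 3.71-fold higher. The ratio differed 1.4-fold between the genotypes (log2 difference 0.48, exact permutation p = 0.2). Both genes stood in the study's own lists and the ratio was picked with earlier results known, so the p describes these libraries.

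The Il1b to Il18 ratio was wider. It was 8.17, 14.5 and 1.37 in WT-NCD, 9.68, 12.8 and 20.05 in WT-HFD, 4.05, 11.8 and 5.45 in Casp11-/- NCD and 4.12, 53.6 and 24.9 in Casp11-/- HFD. On HFD it was 2.62-fold that on NCD (log2 difference 1.39, exact permutation p = 0.1, adjusted p = 0.2), and 1.85-fold without WT-NCD replicate 3. Between the genotypes it was 1.23-fold (exact permutation p = 0.69), a difference that changed sign without WT-NCD replicate 3 or without Casp11-/- HFD replicate 2.

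**Figure D4:**
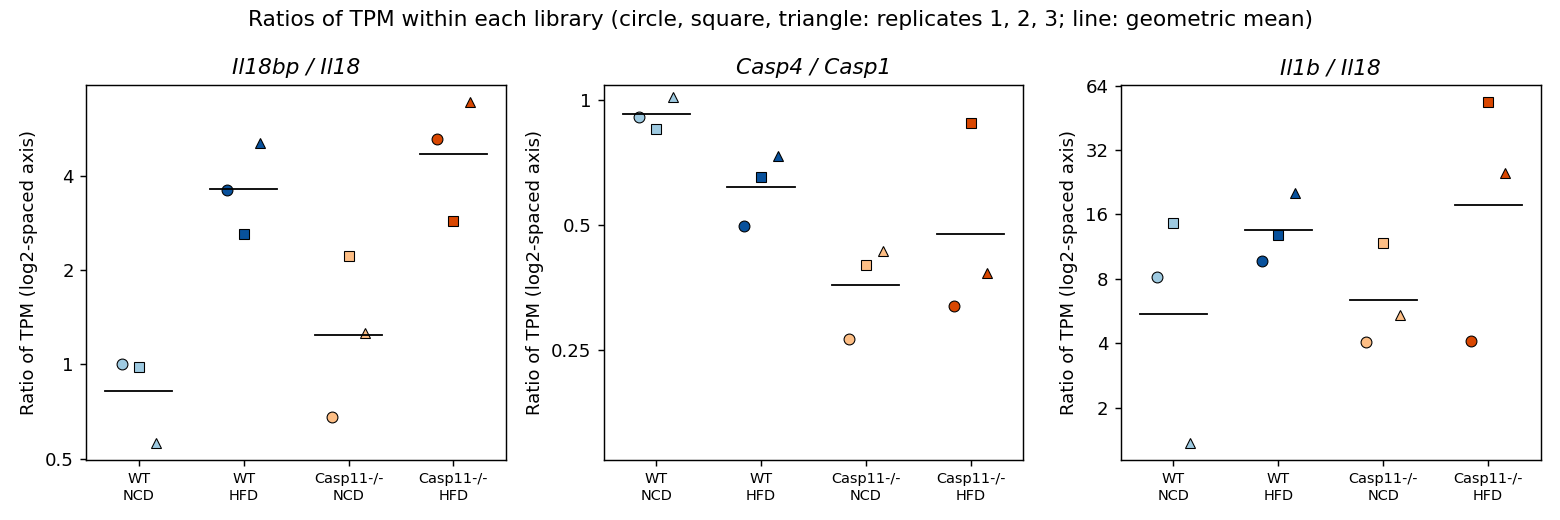
Ratio of the TPM of 2 genes within each library (log2-spaced vertical axes) in the 4 groups, with circles, squares and triangles for replicates 1, 2 and 3 and a line at the geometric mean. The Il18bp to Il18 ratio is at 2.61 to 6.86 in the 6 HFD libraries and at 0.563 to 2.22 in the 6 NCD libraries, and the Casp4 to Casp1 ratio of Casp11-/- HFD replicate 2, 0.881, lies among the WT libraries.

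The wider pathway was read from a list of 48 further gene symbols, of which 47 were in the files and 44 were tested. It held other sensors and genes grouped with them, other caspases, other pore proteins, inhibitors, IL-1 family members, and adaptors and death kinases. None was called in the 7 comparisons with all libraries, and for the averaged diet comparison 13 had a positive and 31 a negative log2 fold change. Without WT-NCD replicate 3, 1 gene rose and 3 fell on HFD averaged over genotypes, a smaller share than the 18.3% of all genes called in that comparison. Il1a, the precursor of IL-1α, rose (log2 fold change 2.03, adjusted p = 0.00667), with group medians of 4.15 and 17.03 TPM in WT-NCD and WT-HFD and 3.26 and 17.9 TPM in Casp11-/- NCD and HFD. Panx1, a large-pore channel, fell (-1.60, adjusted p = 0.0133), as did Serpinb1a, an inhibitor of neutrophil proteases and of caspase-1 activation (-2.10, adjusted p = 0.00134), and Sigirr, a negative regulator of IL-1 family receptors (-1.09, adjusted p = 0.0387).

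Rescaled and without that replicate, 8 of the 44 rose and 2 fell on HFD, beside 13.7% of all genes called. Il1a (2.60, adjusted p = 0.00563), Il1rn, the IL-1 receptor antagonist (1.68, adjusted p = 0.0294), and Il1rap, the shared accessory receptor (1.07, adjusted p = 0.035), rose within the IL-1 family. Ifi204, an interferon-inducible DNA sensor (1.204, adjusted p = 0.0415), Xiap, an inhibitor of apoptosis (0.96, adjusted p = 0.0258), and Mlkl, the effector of necroptosis (0.92, adjusted p = 0.00949), rose as well. Naip1 (0.62) and Casp12 (0.51) completed the 8, but both were above the floor in only 5 of the 12 libraries, and rescaling multiplies the floor too. Panx1 (-1.02, adjusted p = 0.0285) and Serpinb1a (-1.51, adjusted p = 0.00598) fell on both scales. No gene of the list was called for genotype or for the interaction under these settings.

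The most abundant genes of each role were not called on diet in TPM unless named above. Among the genes listed with the other sensors, mean TPM over the 11 libraries was highest for Txnip (353), Nek7 (28.3) and Ifi204 (27.5). Txnip, which binds NLRP3, and Nek7, a kinase of the NLRP3 complex, are not sensors themselves. Of the other caspases, Casp2 was at 25.4 TPM and Casp6 at 10.7 TPM. Ninj1, which ruptures the membrane after the pore has formed, was at 28.2 TPM beside Panx1 at 11.1 and Gsdme, an apoptosis-linked gasdermin, at 2.39. Gsdma, Gsdmc and Il33 were above the floor in 1 library at most. Birc3, Cflar and Card19 led the inhibitors at 49.1, 15.6 and 15.3 TPM, Il1rn, Il1a and Il18rap the IL-1 family at 16.9, 15.6 and 13.8 TPM, and Myd88, Ripk3 and Ripk1 the adaptors and kinases at 21.5, 8.81 and 7.68 TPM. Naip2, Naip5 and Naip6 are close copies of each other, and their separate values are uncertain.

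Across the 11 libraries, the members fell into pairs that varied together and pairs that did not. On log2 values of rescaled protein-coding genes, the highest Pearson r among members were 0.84 for Casp1 with Aim2, 0.84 for Nlrp3 with Il1b, 0.73 for Casp1 with Il18 and 0.73 for Casp4 with Il1b. The lowest was -0.83, for Pycard with Il18bp. These 11 points share the diets, the genotypes and each library's composition, and Casp11-/- NCD replicate 3 and Casp11-/- HFD replicate 2 are extreme in several genes, so the values only describe these libraries.

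Each member was compared by the same r with the 10865 other protein-coding genes above the floor in 8 or more of the 11 libraries. These included the other members. The 3 genes with the highest r were taken for each member, so these r are high by selection. Those of Il18bp were Axl (0.99), Syap1 (0.98) and Lpl (0.97), and those of Pycard were Kcnn4 (0.98), Ell2 (0.98) and Psmd8 (0.97). Those of Il1b were Il1f9 (0.97), Slfn4 (0.96) and Trem1 (0.95), and those of Nlrp3 were Tnfrsf1a (0.94), Rab20 (0.92) and Cd80 (0.91). Casp4 had the weakest companions, Rab7b, Map2k4 and Cd80 (0.80, 0.80 and 0.79), and Cd80 was thus shared with Nlrp3. Those of Casp1 were Usp12, Ankfy1 and Rspry1 (0.95 each), of Casp8 Dis3l2, Ift172 and Med6 (0.95, 0.93 and 0.92), of Gsdmd Pgs1, Pfkp and N4bp1 (0.96 each), of Aim2 Akap10, Zfp52 and Rnpc3 (0.99, 0.98 and 0.98) and of Il18 Nt5dc1, Phospho2 and Pkib (0.91, 0.89 and 0.88).

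In the GENCODE vM21 annotation of GRCm38, the members lie on chromosomes 1 (Casp8 and Aim2), 2 (Il1b), 7 (Pycard and Il18bp), 9 (Casp1, Casp4 and Il18), 11 (Nlrp3) and 15 (Gsdmd). Il18bp, at 102014885 to 102018690, shares 80 of its 3026 exonic bases with Numa1 on the opposite strand, a gene at a mean of 23.4 TPM. Pycard, at 127989708 to 127993867, shares 485 of 3800 exonic bases with the opposite-strand entry Gm45205. The libraries kept strand, but whether strand was used when reads were counted is not given in the sources used here.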

How the data were processed

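Total RNA of the liver immune cell fraction was made into random-primed stranded libraries, and the authors aligned single-end reads to mm10 (GRCm38.p6) with STAR, from which Qlucore Omics Explorer gave TPM, per the paper and the labels. The deposited values are score values here: TPM by the authors' account, with a floor of 1.01 and totals of 1000353 to 1022495 per library, on a linear scale. Apart from the nominal depth that the paper states, the read counts and counting error of each library are unknown.

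Groups followed the labels. Log2(TPM + 1) of genes that exceeded the floor in 3 or more libraries was fitted with limma 3.58.1 (R 4.3.3) with a trend and 1 spread for the 4 groups, and p-values (two-sided) were adjusted by Benjamini and Hochberg over all genes tested. Ratios and single genes were compared by exact permutation of libraries within the other factor (Python 3.11.15), and the permutation p of single genes were not adjusted. The study's methods used analysis of variance. Gene types and upstream sequences came from RefSeq, positions from GENCODE vM21. Same-numbered replicates deviated with correlations of -0.64 to 0.47 from their group means. Differently numbered replicates were not set beside them, so this cannot decide whether the numbers pair the mice. The main fit used no pairing. The limma step was tested on simulated data with known changes.

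The text names all 10 members, pathway genes that were called or among the 3 most abundant of their role, genes within 1 Mb of Casp4, and the 3 genes most like each member. A gene that this rule would name is not reported here. The members, lists and ratios were chosen with earlier results of these data known. Alternatives changed the filter, pseudocount, scaling, spread and libraries.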

Additional observations from a re-analysis of the deposited data

How the results depend on the processing

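Most choices left the calls as they were: of 7 comparisons, the number of members called was 0 under the other filters, pseudocounts, spread and prior settings, without the top 1% of genes, and with a replicate block (0 each). It was 1 in WT mice without WT-NCD replicate 3, 2 when rescaling was added and 1 with Casp11-/- HFD replicate 2 also left out, on either scale, so the range over single libraries left out was 0 to 1. In Casp11-/- mice it was 1 when rescaled without WT-NCD replicate 3, with or without Casp11-/- HFD replicate 2. For the averaged diet comparison it was 1 rescaled, 2 rescaled without WT-NCD replicate 3, 2 when Casp11-/- HFD replicate 2 was dropped too, 1 without those 2 libraries unscaled, and 0 to 2 over single libraries left out. Leaving out both libraries was chosen after seeing the data. Averaged diet log2 fold changes that turned sign, none of them called, were 0.46, 0.55, 0.47, 0.17, 0.55 and 0.29 without the top 1% of genes (Casp4, Casp1, Casp8, Gsdmd, Aim2 and Il18). Rescaled, they were 0.078, 0.045 and 0.24 for Casp1, Casp8 and Aim2. Rescaled without WT-NCD replicate 3, they were 0.096, 0.16, 0.075 and 0.054 for Casp4, Casp1, Aim2 and Il18, and with Casp11-/- HFD replicate 2 dropped too 0.19 and 0.087 for Casp1 and Aim2. Without both libraries in TPM, Nlrp3 was at -0.35 and Il1b at -0.19. Over single libraries left out, Nlrp3 ran from -0.24 to 0.36 and Aim2 from -0.52 to 0.19 for diet, and Il18 from -0.49 to 0.086 for genotype. The Casp4 genotype difference had an unadjusted exact permutation p of 0.035 when rescaled (-0.88), and of 0.065 with WT-NCD replicate 3 also left out. Of the ratio differences (log2), Casp4 to Casp1 for genotype ran from -1.09 to -0.73 over single libraries left out and was -1.06 without both libraries (called), and for diet it ran from -0.31 to 0.061. Il18bp to Il18 for diet ran from 1.81 to 2.24, and Il1b to Il18 for genotype from -0.20 to 0.83, with -0.60 without both. Exchanging diets only within a replicate block left Il18bp to Il18 at 2.03 with an adjusted exact permutation p of 0.188, since 64 arrangements allow no p below 0.0313, so a lost call there is not a weaker effect. The 3 single libraries whose removal lost that call brought the exact permutation p from 0.005 to 0.01 before adjustment. Unknown read counts limit every level of a few TPM.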
